A study of Homo sapiens with 24 samples.

Results

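SK-N-SH is a human neuroblastoma line that is known to hold both neuroblast-like cells and flat, substrate-adherent cells. The series knocked down FAM167A (also called DIORA1) in SK-N-SH and in a second neuroblastoma line, SK-N-AS, and this account sets the untargeted SK-N-SH cultures of its siRNA experiment against those of its CRISPRi experiment. The groups were chosen by label alone. The siRNA controls were 5 libraries of SK-N-SH cells given a non-targeting control (NTC) siRNA. The CRISPRi controls were 3 libraries of SK-N-SH cells with SpCas9-KRAB, a Cas9 fused to a transcriptional repressor domain, and the guide sgGal4, which is also labelled NTC. These 8 libraries are 8 of the 24 in the series. Genes were matched by Ensembl identifier, and 58366 identifiers were in both tables, of 58735 in the siRNA table and 61541 in the CRISPRi table.

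The design fixed the limits of this comparison. The 2 experiments differed in the control agent, in the library kit and in the gene annotation, so these and the state of the cultures cannot be told apart. The CRISPRi libraries came from a stranded kit, and the protocol text for the siRNA libraries describes either kind without saying which was made. No label says that libraries of a group came from separate cultures, so p-values measure only the spread between these libraries, which may be technical. The siRNA control libraries held 71464698 to 85121003 counts and the CRISPRi control libraries 11690515 to 21628076. No library pair within a group differed by as little as sampling noise, with chi-square per degree of freedom of at least 6.49 between siRNA controls and at least 2.99 between CRISPRi controls. Pairs with siRNA control replicate 5 were at 13.1 to 20.5, and the other siRNA control pairs at 6.49 to 9.29.

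Neuroblastoma arises from sympathoadrenal cells of the neural crest. Its cells are known to take an adrenergic state, held by transcription factors such as HAND2 and GATA3 with neuroendocrine secretory genes, or a mesenchymal state marked by factors such as PRRX1, FOSL1 and YAP1 with vimentin, fibronectin and contractile genes. Cells can move between these states, and SK-N-SH cultures are known to contain both.

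Of 21679 genes that passed the filter on low counts, 14855 (68.5%) had an adjusted p under 0.05 by edgeR's quasi-likelihood test with Benjamini-Hochberg adjustment over all genes tested. In the siRNA controls 8068 genes (37.2%) were higher and 6787 (31.3%) were lower, and 4013 (18.5%) and 2310 (10.7%) were so by at least 2-fold. Every siRNA control lay above every CRISPRi control for 36.4% of genes and below for 30.4%. The median log2 difference over all genes tested was 0.08. All log2 differences below are siRNA controls over CRISPRi controls, and levels are in CPM, counts scaled to a common library size with TMM factors. With 68.5% of all genes past the threshold, a call on its own says little, and the counts for each gene list are read against these shares.

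Genes whose exons share bases with another gene stood apart. Among 118 protein-coding genes with 50% or more of their exonic bases shared with a gene on the opposite strand, the median log2 difference was -1.77, and 84 were at least 2-fold lower in siRNA controls. ILK, an integrin-linked kinase gene with 78.5% of its exonic bases shared, was at 0.62, 0.731, 0.998, 0.651 and 1.17 CPM in siRNA controls and at 117, 120 and 128 CPM in CRISPRi controls. CDC42, the small GTPase to which MRCK kinases bind, has 59.4% of its exonic bases shared and averaged 1.48 ± 0.158 CPM in siRNA controls and 243 ± 2.63 CPM in CRISPRi controls (SD, n = 5 and 3). The mitochondrial genes MT-ND6 and MT-ATP8 differed in opposite directions although both lie on the mitochondrial genome. MT-ND6, the gene on the strand opposite to most others, averaged 811 ± 38.0 CPM in siRNA controls and 41.6 ± 8.48 CPM in CRISPRi controls (SD, n = 5 and 3), and MT-ATP8, which overlaps its neighbour, averaged 25.9 ± 0.727 and 1301 ± 245 CPM in those groups. For such genes the handling of strand, the annotation and the cultures cannot be told apart.

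A set of 9690 protein-coding genes was therefore followed beside the full table: those with under 5% of exonic bases shared with another gene, a span within 10% in both tables and no gene listed only in the CRISPRi table over them on the same strand. These are called genes with unshared exons. In this set 72.9% of genes passed the same test, 11.9% were at least 2-fold higher and 5.84% at least 2-fold lower in siRNA controls, and the median was 0.08. The groups did not overlap with siRNA controls above for 39.9% of the set and below for 30.3%. The difference also rose with exonic length, with a median of 0.00 in the shortest of 5 equal groups of these genes, -0.03, 0.05 and 0.10 in the next and 0.27 in the longest. The part of strand, annotation and length in the results on other genes was not tested. List medians are therefore also given for genes with unshared exons after the length trend was subtracted, some of them only in the closing section.

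**Figure D1:**
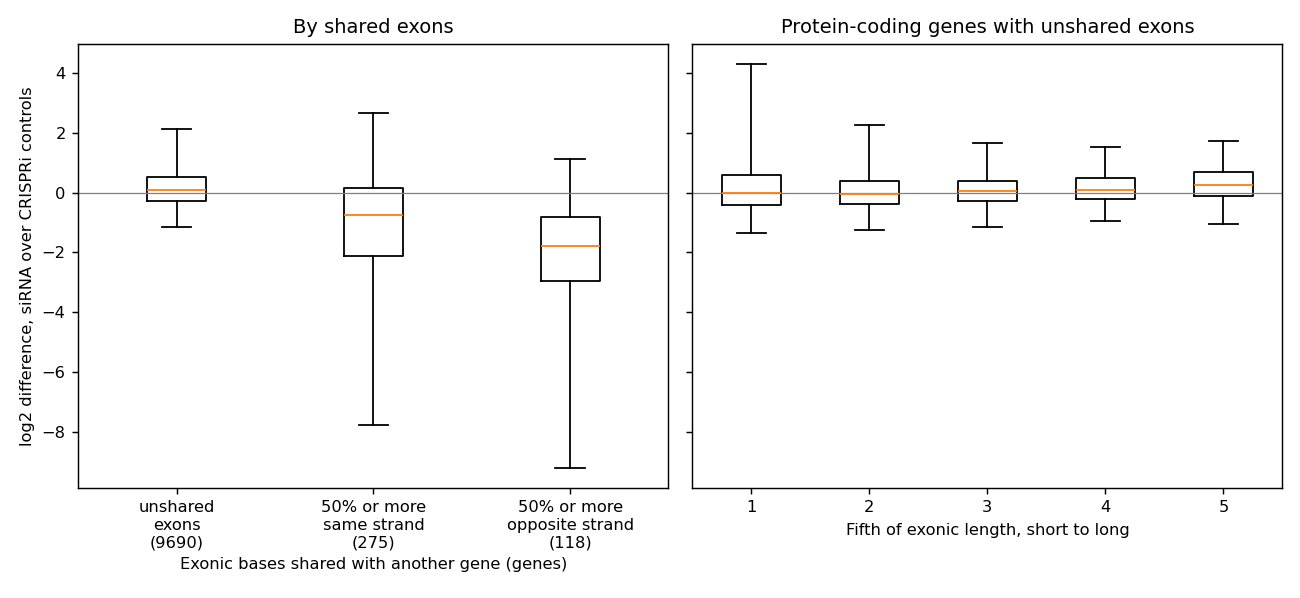
Log2 difference of siRNA over CRISPRi control libraries (y axis) by the share of exonic bases that a protein-coding gene has in common with another gene (left, number of genes in brackets) and by 5 groups of exonic length among genes with unshared exons (right). Boxes span the quartiles with the median as a line and whiskers run from the 5th to the 95th percentile; genes sharing 50% or more with the opposite strand have a median of -1.77 and the longest group one of 0.27.

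Over 8933 genes with unshared exons, the siRNA control and CRISPRi control libraries stood apart by a median absolute log2 difference of 0.344 to 0.384 over the 15 pairs. Pairs of siRNA controls differed by 0.0614 to 0.111 and pairs of CRISPRi controls by 0.0814 to 0.108. For scale, siRNA controls differed from the 4 SK-N-AS CRISPRi controls by 0.576 to 0.624 and CRISPRi controls from them by 0.503 to 0.534. The groups of SK-N-SH controls were thus closer to each other than either was to the other line, on values from 3 tables that the authors counted separately.

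Both groups carried the marks of sympathoadrenal neuroblasts. Of HAND2, GATA3, ISL1 and DBH, which mark these cells, the lowest level in any of the 8 libraries was 130.3 CPM, that of ISL1 in a siRNA control. TH, which encodes the first enzyme of catecholamine synthesis, failed the filter on low counts, with 6 to 12 reads in each siRNA control and at most 1 in each CRISPRi control. Markers of other cell types were low in sum, at 0.470 to 1.03 CPM in siRNA controls and 1.60 to 2.17 CPM in CRISPRi controls for the 4 blood cell markers tested, and at 4.33 to 5.29 and 6.25 to 7.13 CPM for the 8 endothelial markers. PTPRC, the common leukocyte gene, was at 0 to 0.0809 CPM in siRNA controls and 0.607 to 0.705 CPM in CRISPRi controls. The 6 epithelial markers tested summed to 31.9 to 36.4 CPM in siRNA controls and 86.3 to 93.7 CPM in CRISPRi controls, with EPCAM, the epithelial adhesion gene, under 1.04 CPM in every library. The 11 markers of Schwann cell precursors and glia that were tested summed to 31.2 to 31.6 CPM in siRNA controls and 26.7 to 30.5 CPM in CRISPRi controls. Of these 11, 6 were higher, 5 of them by at least 2-fold, and 1 lower in siRNA controls, with a median log2 difference of 1.12. SOX10, the factor that defines this lineage, was at 0.0809 to 0.206 CPM in siRNA controls with no read in any CRISPRi control, and S100B, a glial calcium-binding protein gene, was at 1.37 to 1.98 CPM in siRNA controls and 0.173 to 0.346 CPM in CRISPRi controls. The part of glial cells in the neuronal results was not tested. Fibroblast and smooth muscle genes were abundant in both, at 2557 to 2809 CPM in siRNA controls and 2845 to 2924 CPM in CRISPRi controls. Of the 12 tested, 4 were higher, 6 lower and 2 not called in siRNA controls, so that the near-equal sums hold differences in both directions.

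FAM167A, the target of the series, was at 183, 188, 164, 197 and 187 CPM in siRNA controls, against 241, 268 and 257 CPM in CRISPRi controls. Every siRNA control lay below every CRISPRi control, and the log2 difference was -0.47 (SE 0.05, adjusted p = 8.5e-09). Its paralogue FAM167B was near the limit of detection at 0.661 ± 0.193 CPM in siRNA controls and 0.595 ± 0.140 CPM in CRISPRi controls (SD, n = 5 and 3), with a log2 difference of 0.12 that missed the threshold (adjusted p = 0.77). BLK, a Src-family kinase gene next to FAM167A on chromosome 8, was higher in siRNA controls, at 8.44 to 13.2 CPM against 1.03 to 1.30 CPM in CRISPRi controls. Of 14 genes tested in a list of FAM167A, its 8p23.1 neighbours and FAM167B, which lies on chromosome 1, 7 were higher and 2 lower. The shares over all genes tested were 37.2% and 31.3%.

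The MRCK kinases drive contraction of actomyosin downstream of CDC42. CDC42BPA, which encodes MRCK alpha, averaged 101 ± 2.63 CPM in siRNA controls and 153 ± 5.86 CPM in CRISPRi controls (SD, n = 5 and 3). Its log2 difference was -0.59 (SE 0.04), and it starts beyond 150 Mb on chromosome 1, a stretch described below. CDC42BPG, for MRCK gamma, was at 11.1 to 12.9 CPM in siRNA controls and 6.67 to 7.63 CPM in CRISPRi controls (log2 difference 0.81, SE 0.10). CDC42BPB, for MRCK beta, passed narrowly at a log2 difference of -0.11 (adjusted p = 0.032), its libraries overlapped, and the call was lost under some other scalings.

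Most adrenergic transcription factors were higher in the siRNA controls. Of 26 tested, 21 were higher, 3 lower and 2 not called, against 37.2% and 31.3% of all genes, and their median log2 difference was 0.51. The 21 members with unshared exons had a median of 0.45 after the length trend was subtracted. In bulk RNA, fewer cells of a type and less RNA per cell cannot be told apart.

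INSM2, a zinc-finger factor of neuroendocrine cells, had the largest rise of the 26. INSM2 stood at 64.2, 70.2, 71.8, 59.0 and 58.6 CPM in siRNA controls and at 13.7, 14.4 and 13.4 CPM in CRISPRi controls (log2 difference 2.23, SE 0.08, adjusted p = 9.4e-17). SOX11, a factor of immature neurons, was at 171, 169, 160, 160 and 161 CPM in siRNA controls, against 64.2, 61.2 and 59.9 CPM in CRISPRi controls (log2 difference 1.41, SE 0.05). For neither gene did the groups overlap. ZNF536 averaged 57.4 ± 1.20 CPM in siRNA controls and 15.6 ± 1.13 CPM in CRISPRi controls (SD, n = 5 and 3). It shares 13.4% of its exonic bases, and a gene listed only in the CRISPRi table lies over it on the same strand. MYCN, the oncogene amplified in a share of neuroblastomas, was low in both groups, at 4.29 to 5.85 CPM in siRNA controls and 1.87 to 2.6 CPM in CRISPRi controls.

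The factors at the centre of the adrenergic circuit differed less. GATA2 averaged 651 ± 30.5 CPM in siRNA controls and 405 ± 9.72 CPM in CRISPRi controls (SD, n = 5 and 3; log2 difference 0.69), and GATA3 averaged 238 ± 8.33 and 166 ± 2.99 CPM in those groups (log2 difference 0.52). HAND2, with 24.1% of its exonic bases shared, had a log2 difference of 0.40 (adjusted p = 1.2e-08). PHOX2A (log2 difference 0.08, adjusted p = 0.12) and HAND1 (-0.07, adjusted p = 0.27) were not called, and the libraries of the groups overlapped for both. A missed threshold does not show that their levels were equal.

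ISL1 and EYA1 were among the 3 adrenergic factors that went the other way. ISL1, a LIM-homeodomain factor of sympathetic neurons, was at 133, 143, 132, 132 and 130.3 CPM in siRNA controls and at 180.3, 195 and 187 CPM in CRISPRi controls, with no overlap (log2 difference -0.48, SE 0.04, adjusted p = 1.9e-10). EYA1, a transcriptional coactivator gene, had a log2 difference of -0.93.

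Genes for products of the adrenergic state did not all move one way. Of 14 tested genes for catecholamine synthesis and handling, 7 were higher and 6 lower in siRNA controls, against 37.2% and 31.3% of all genes. Their median of 0.11 was near the 0.08 of all genes, so the list as a whole did not stand apart. DBH, which converts dopamine to noradrenaline, averaged 370 ± 20.6 CPM in siRNA controls and 655 ± 21.7 CPM in CRISPRi controls (SD, n = 5 and 3; log2 difference -0.82). MAOB, which degrades amines, was at 34.3 to 41.8 CPM in siRNA controls and 9.68 to 10.3 CPM in CRISPRi controls (log2 difference 1.95). Among 11 receptors for growth factors of sympathetic neuroblasts, 5 were higher and 2 lower, with a median of 0.19. GFRA2, a coreceptor gene for ligands of the GDNF family, had a log2 difference of 1.66, and GFRA1, whose product binds GDNF, one of -2.88.

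Genes of the dense-core secretory granule showed larger rises. Of 12 tested, 9 were higher and 2 lower, 6 of the 9 by at least 2-fold, and the median was 0.91. VGF, a secreted precursor of neuropeptides, was at 1421, 1430, 1485, 1421 and 1322 CPM in siRNA controls, against 156, 148 and 154 CPM in CRISPRi controls (log2 difference 3.22, SE 0.05, adjusted p = 1.5e-25). CHGA, for chromogranin A, was at 1186 to 1428 CPM in siRNA controls and 319 to 364 CPM in CRISPRi controls (log2 difference 1.97). SCG2, for secretogranin II, was at 1080 to 1221 CPM in siRNA controls and 308 to 349 CPM in CRISPRi controls (log2 difference 1.81). For none of the 3 did the groups overlap. SYT4, a granule synaptotagmin, had a log2 difference of 2.86, whereas CHGB, for chromogranin B, went the other way at -0.43.

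Neuronal cytoskeleton and differentiation genes moved with them: 22 of 29 were higher and 5 lower, 10 of the 22 by at least 2-fold, with a median of 0.74. DCX, for the microtubule-binding doublecortin of migrating neuroblasts, was at 389, 401, 379, 390 and 400 CPM in siRNA controls, against 45.8, 55.1 and 44.8 CPM in CRISPRi controls (log2 difference 3.01, SE 0.06). The intermediate filament genes NEFL, NEFH and INA had log2 differences of 1.35, 1.95 and 1.37. TUBB3, a neuronal tubulin gene with 35.8% of its exonic bases shared, was lower at -1.34. Of 6 neuropeptide genes tested, NTS, NPY and VIP were higher and GAL was lower (log2 difference -0.68).

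**Figure D2:**
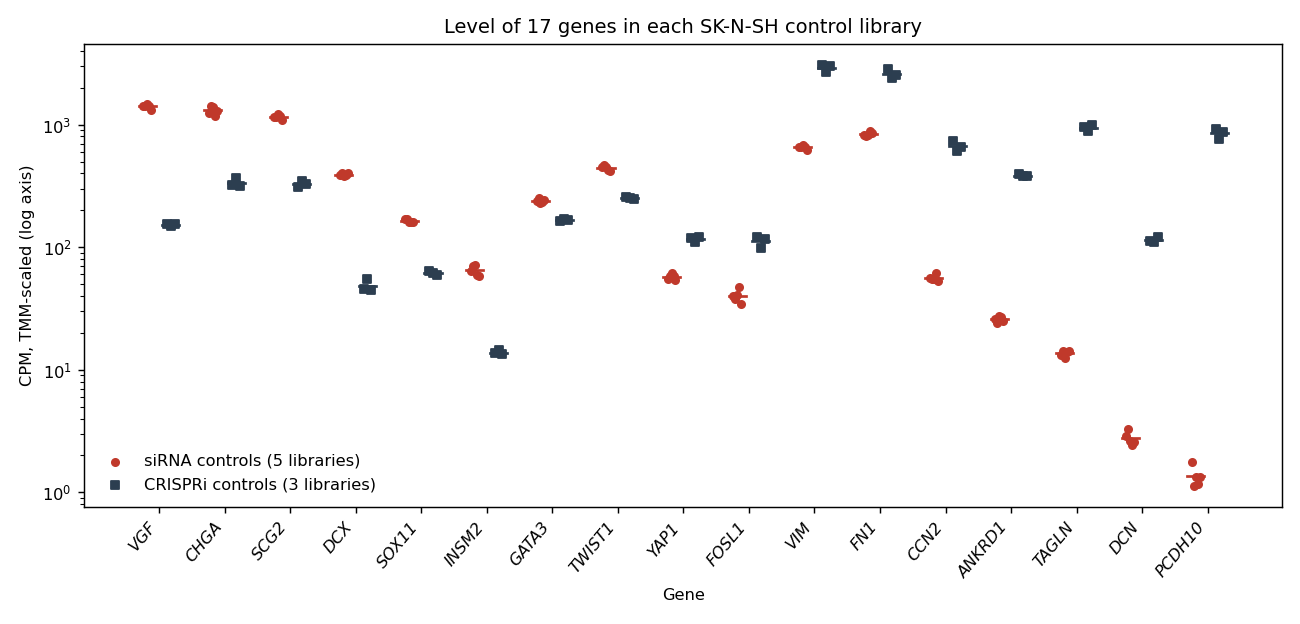
Level of 17 genes in every library on a log axis of CPM; red circles on the left of each gene are the 5 siRNA controls, dark squares on the right the 3 CRISPRi controls, and short lines their means. The granin and neuronal genes lie higher in siRNA controls (VGF 1322 to 1485 against 148 to 156 CPM) and the contractile and matrix genes lower (TAGLN 12.6 to 14.3 against 881 to 986 CPM).

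The mesenchymal transcription factors leaned the other way, with exceptions. Of 35 tested, 7 were higher, 23 lower and 5 not called in siRNA controls, and the median log2 difference was -0.36. The 29 members with unshared exons had a median of -0.40 after the length trend was subtracted.

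FOSL1, an AP-1 subunit, was at 40.1, 37.9, 41.0, 47.3 and 34.4 CPM in siRNA controls and at 120, 98.7 and 116 CPM in CRISPRi controls (log2 difference -1.48, SE 0.09). YAP1, the coactivator of the Hippo pathway, was at 53.5 to 61.5 CPM in siRNA controls and 109 to 122 CPM in CRISPRi controls (log2 difference -1.02, SE 0.05). Of the exonic bases of YAP1, 9.97% are shared with the opposite strand. NR3C1, the glucocorticoid receptor gene, had a log2 difference of -1.18, ID2, an inhibitor of basic helix-loop-helix factors, one of -1.29 and IFI16, a nuclear DNA sensor, one of -1.16. PRRX1, a homeodomain factor able to drive the mesenchymal state, differed little: it averaged 345 ± 18.5 CPM in siRNA controls and 395 ± 9.14 CPM in CRISPRi controls (SD, n = 5 and 3; log2 difference -0.19). TWIST1, a factor of neural crest migration, was among the 7 that were higher, at 415 to 467 CPM in siRNA controls and 249 to 256 CPM in CRISPRi controls (log2 difference 0.81). GLIS3 (log2 difference 1.41) and ZEB2 (0.40) were also higher, and ZEB2 turned to -0.17 once the length trend was subtracted. SNAI2 and SOX9 were not called, with log2 differences of 0.23 and 0.05.

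Mesenchymal effector genes were divided, with 10 of 30 higher and 18 lower and a median of -0.66. VIM, for vimentin, was at 658, 653, 680, 658 and 621 CPM in siRNA controls, against 3063, 2682 and 3013 CPM in CRISPRi controls (log2 difference -2.16, SE 0.05), with 24.4% of its exonic bases shared with another gene. FN1, for fibronectin, shares none and was at 814 to 894 CPM in siRNA controls and 2401 to 2863 CPM in CRISPRi controls (log2 difference -1.62). MET, the hepatocyte growth factor receptor gene, had a log2 difference of -1.77. TIMP3, an inhibitor of matrix proteases, was the other way round at 101 to 106 CPM in siRNA controls and 19.7 to 22.1 CPM in CRISPRi controls (log2 difference 2.30).

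Most contractile genes were lower. Of 31 actomyosin and MRCK genes tested, 3 were higher and 24 lower in siRNA controls, 13 of them by at least 2-fold, and the median was -0.87. Among the 18 with unshared exons the median was -0.62 after the length trend was subtracted. TAGLN, for the actin-binding protein transgelin, was at 13.1, 14.3, 12.6, 13.9 and 14.3 CPM in siRNA controls, against 957, 881 and 986 CPM in CRISPRi controls (log2 difference -6.11, SE 0.05, adjusted p = 9.8e-32). ACTA2, for smooth muscle actin, averaged 17.3 ± 1.78 CPM in siRNA controls and 483 ± 37.6 CPM in CRISPRi controls (SD, n = 5 and 3; log2 difference -4.80). Of the exonic bases of TAGLN and ACTA2, 11.4% and 30.1% are shared with other genes. CNN1, for calponin, and MYH9, for non-muscle myosin heavy chain, share none and had log2 differences of -2.92 and -0.87.

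YAP and TAZ are coactivators that enter the nucleus in spread, tensed cells and act through TEAD factors, which bind the bases GGAATG. Of 23 YAP and TAZ targets tested, 6 were higher and 17 lower in siRNA controls, 13 of the 17 by at least 2-fold, and the median was -1.33. It was -1.28 in the 17 members with unshared exons after the length trend was subtracted. The 2 promoters shown are those of the genes with the largest falls in this list, and each holds the hexamer more than once. They are the 250 bases before the gene start in RefSeq (GRCh38.p14), on the gene's strand, with GGAATG or its reverse complement in capitals; CCN2 is at chr6:131951373-131951622 and ANKRD1 at chr10:90921088-90921337, both on the minus strand.
CCN2: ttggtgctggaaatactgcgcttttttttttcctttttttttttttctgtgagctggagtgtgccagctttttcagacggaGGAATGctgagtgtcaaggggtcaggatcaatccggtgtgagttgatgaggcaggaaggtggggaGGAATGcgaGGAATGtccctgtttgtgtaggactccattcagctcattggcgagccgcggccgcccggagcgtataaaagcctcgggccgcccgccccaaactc
ANKRD1: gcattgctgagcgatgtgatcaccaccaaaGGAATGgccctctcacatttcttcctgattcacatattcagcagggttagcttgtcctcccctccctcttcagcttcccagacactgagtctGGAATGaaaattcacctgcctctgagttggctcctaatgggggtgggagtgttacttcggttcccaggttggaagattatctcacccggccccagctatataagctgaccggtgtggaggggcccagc

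The hexamer, on either strand, was found in 3248 of 27305 such windows (11.9%) and in 6 of the 18 list members that had an entry. Of those 6, NUAK2 held it 2 times and was higher in siRNA controls, and FOXF2 had no read in any control library. GADD45B, with a log2 difference of -3.2, had no match. A match describes the letters of the window and is not a site.

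ANKRD1, a cardiac ankyrin repeat protein gene that responds to stretch, was at 26.0, 23.9, 27.4, 27.1 and 24.9 CPM in siRNA controls, against 393, 378 and 381 CPM in CRISPRi controls (log2 difference -3.89, SE 0.05, adjusted p = 1.3e-28). CCN2, a matricellular growth factor gene, was at 56.4, 54.9, 55.5, 61.8 and 53 CPM in siRNA controls and at 733, 610 and 652 CPM in CRISPRi controls (log2 difference -3.56, SE 0.05). CCN1, its relative, had a log2 difference of -2.20. NUAK2, a kinase gene of the same list, averaged 7.22 ± 1.43 CPM in siRNA controls and 2.19 ± 0.515 CPM in CRISPRi controls (SD, n = 5 and 3). TGF-beta targets, which share TAGLN, CCN2 and TGFB2 with these lists, were lower in 15 of 19 and higher in 4, with a median of -0.60. INHBA, for an activin subunit, was at 59.4 to 68.0 CPM in siRNA controls and 375 to 414 CPM in CRISPRi controls (log2 difference -2.62).

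**Figure D3:**
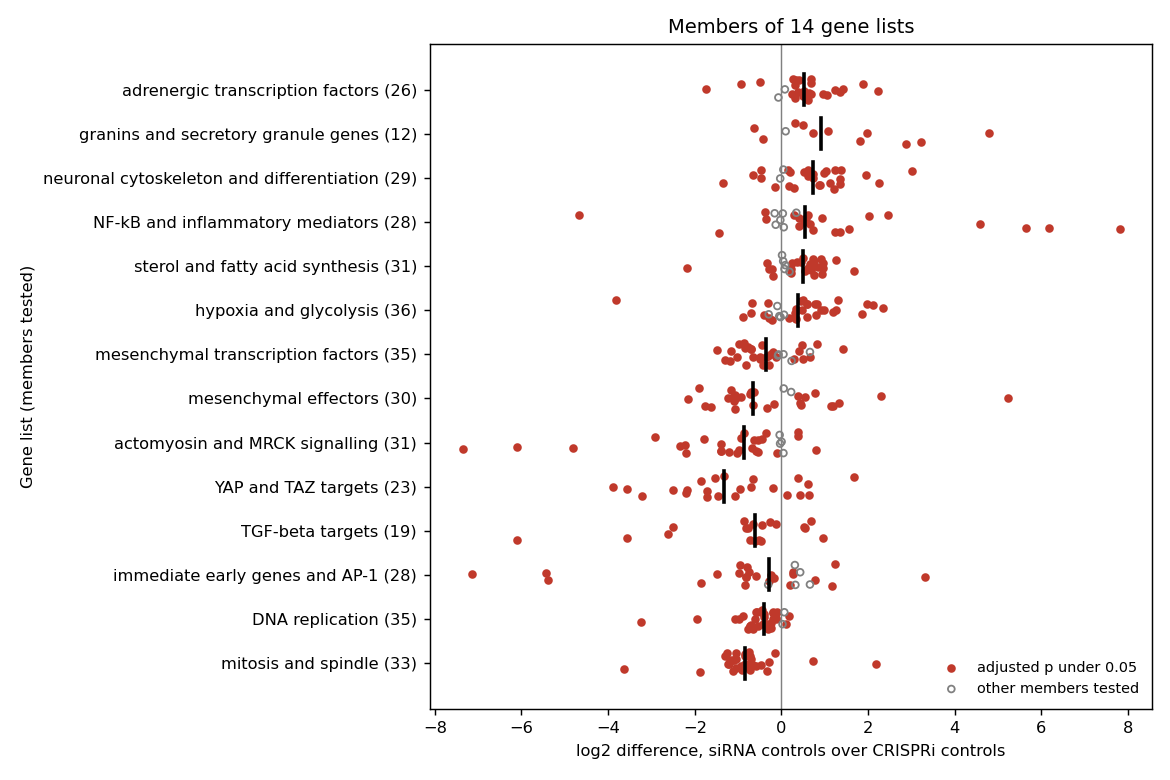
Log2 difference of siRNA over CRISPRi controls (x axis) for each tested member of 14 gene lists (rows, number of members in brackets); filled points passed an adjusted p of 0.05, open points did not, and black bars are list medians. Adrenergic factors, granins and neuronal genes have medians of 0.51, 0.91 and 0.74, and YAP and TAZ targets and actomyosin genes medians of -1.33 and -0.87.

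Matrix genes went both ways. Of 50 matrix glycoproteins and proteases, 20 were higher and 26 lower in siRNA controls, and of 21 collagens 8 were higher and 10 lower, with medians of -0.15 and -0.04; that of the collagens changed sign in some other settings. The small leucine-rich proteoglycan genes DCN and LUM were lower. DCN was at 2.91, 3.26, 2.64, 2.42 and 2.58 CPM in siRNA controls, against 112, 110 and 122 CPM in CRISPRi controls (log2 difference -5.37), and LUM averaged 19.5 ± 0.762 CPM in siRNA controls and 361 ± 16.1 CPM in CRISPRi controls (SD, n = 5 and 3). Also lower was FBN2, for fibrillin 2, with a log2 difference of -4.16. DCN and LUM belong to the 12 fibroblast and smooth muscle markers, of which ACTA2, CNN1, POSTN (log2 difference -1.21) and DES (-4.05, under 0.62 CPM in every library) were the other 4 that were lower. PDGFRA, a receptor gene of fibroblasts, went the other way at 110 to 126 CPM in siRNA controls and 49.6 to 56.7 CPM in CRISPRi controls (log2 difference 1.18). RGS5, a pericyte gene that made up much of the list's sum, was at 1803 to 2061 CPM in siRNA controls and 939 to 1121 CPM in CRISPRi controls (log2 difference 0.93). FBLN1 and MYH11 were also higher, with log2 differences of 0.20 and 4.05, and MYH11 was under 1.05 CPM in every library. PDGFRB and FAP were not called, with log2 differences of 0.05 and -0.15. The fibroblast markers thus did not differ in one direction. COL1A1 and COL3A1, the main fibrillar collagens, differed in opposite directions, with log2 differences of -1.11 and 0.37.

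The largest differences lay in genes that were abundant in one group and nearly absent from the other. By the rule for the 12 largest rises and 12 largest falls among protein-coding genes, 7 of the 24 had unshared exons, 5 of the rises and 2 of the falls. The other 10 falls shared 71.2% or more of their exonic bases, and the 20 largest in each direction within the unshared set were therefore added after the values were seen. PCDH10, a protocadherin gene, was at 1.78, 1.14, 1.33, 1.18 and 1.34 CPM in siRNA controls and at 924, 764 and 872 CPM in CRISPRi controls (log2 difference -9.30, SE 0.09). ARHGAP36, an antagonist of protein kinase A, averaged 0.348 ± 0.143 CPM in siRNA controls and 165 ± 12.7 CPM in CRISPRi controls (SD, n = 5 and 3). BRINP2, a neural gene of cell cycle exit, and HAPLN1, which links hyaluronan to proteoglycans, had log2 differences of -7.27 and -6.19.

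In the other direction, MXRA5, a matrix proteoglycan gene, was at 65.9, 61.7, 66.1, 66.7 and 63.2 CPM in siRNA controls with no read in any CRISPRi control. SLC5A7, the choline transporter gene of cholinergic neurons, was at 37.7 to 44.6 CPM in siRNA controls and likewise had no read in CRISPRi controls. Against the limit that 3 counts over the group allow, they were at least 1020-fold and at least 662-fold higher. CELSR1, an adhesion receptor gene of planar polarity, averaged 20.6 ± 0.837 CPM in siRNA controls and 0.193 ± 0.135 CPM in CRISPRi controls (SD, n = 5 and 3). DPP4, a cell-surface peptidase gene, NDN, an imprinted neuronal gene, and CBLN4, a synaptic organiser gene, had log2 differences of 5.46, 6.81 and 7.53. Of the protein-coding genes at 5 CPM or more in one group and under 0.1 CPM in every library of the other, 16 were under it in CRISPRi controls and 11 in siRNA controls, 8 and 2 of them with unshared exons.

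Signalling lists differed by pathway. Of 28 NF-kB and inflammatory mediators tested, 18 were higher and 4 lower in siRNA controls, with a median of 0.54. CXCL8, the neutrophil chemokine gene, was at 18, 10.9, 13.6, 28.1 and 9.40 CPM in siRNA controls, against 0.520, 0.346 and 0.188 CPM in CRISPRi controls (log2 difference 5.64, SE 0.97, adjusted p = 0.0019). The siRNA controls spread widely but lay above every CRISPRi control, and the call was lost with limma-voom (adjusted p = 0.096). CSF2 and IL1B were low, at 0.329 to 0.990 and 0.270 to 0.835 CPM in siRNA controls, with at most 0.0470 CPM and no read in CRISPRi controls. CXCL12, a chemokine gene of stromal cells, was lower at -4.68, and CXCR4, which encodes its receptor, was at 33.0 to 37.9 CPM in siRNA controls and 2.95 to 3.67 CPM in CRISPRi controls (log2 difference 3.49). The interferon and nucleic acid sensor list was mixed, with 9 of 41 higher and 18 lower, DDX58, for the RNA sensor RIG-I, at a log2 difference of 3.36 and IFITM2, an antiviral membrane protein gene, at -1.86.

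Immediate early genes, which respond to growth factors within minutes, were lower in 16 of 28 and higher in 7, with a median of -0.29. FOS was at 4.54, 3.97, 4.51, 3.74 and 4.23 CPM in siRNA controls, against 152, 192 and 182 CPM in CRISPRi controls (log2 difference -5.39, SE 0.07). FOSB, its relative, had a log2 difference of -7.14 and KLF2, a zinc-finger gene that responds to flow, one of -5.44. EGR1 differed much less, at -0.79. Among the 7 that were higher, DUSP4, a phosphatase gene that dampens MAP kinase signalling, was at 212 to 223 CPM in siRNA controls and 87.9 to 93.1 CPM in CRISPRi controls (log2 difference 1.24). Its relative DUSP5 had a log2 difference of 1.18 and EGR3, at under 0.81 CPM in every library, one of 3.32.

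Most cell cycle genes were lower. Of 33 mitosis and spindle genes, 31 were lower and 2 higher in siRNA controls, 13 of the 31 by at least 2-fold, with a median of -0.84, and of 35 DNA replication genes 31 were lower and 2 higher, with a median of -0.39. ANLN, for the cytokinesis scaffold anillin, was at 91.6, 84.7, 95.8, 92.8 and 85.9 CPM in siRNA controls and at 331, 329 and 329 CPM in CRISPRi controls (log2 difference -1.87, SE 0.04). AURKA and CDK1, kinases of mitotic entry, had log2 differences of -1.18 and -1.10. MKI67, for the proliferation antigen Ki-67, went the other way, at 466 to 539 CPM in siRNA controls and 272 to 306 CPM in CRISPRi controls (log2 difference 0.72). RRM2, for a subunit of ribonucleotide reductase, had a log2 difference of -1.95, with 20.2% of its exonic bases shared.

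Among metabolic lists, sterol and fatty acid synthesis genes were higher in 21 of 31 and lower in 5, with a median of 0.50. SREBF2, a regulator of the pathway, was at 166, 163, 159.8, 167 and 171 CPM in siRNA controls and at 86.3, 85.7 and 85.0 CPM in CRISPRi controls, with no overlap (log2 difference 0.95, SE 0.04). SCD, a fatty acid desaturase gene, had a log2 difference of 0.90. Hypoxia and glycolysis genes were higher in 23 of 36 and lower in 8, with a median of 0.39. PGAM1, a glycolytic mutase gene, was at 255 to 289 CPM in siRNA controls and 58.6 to 68.6 CPM in CRISPRi controls (log2 difference 2.12), and EGLN3, an oxygen sensor gene, had a log2 difference of 2.33. Of 13 mitochondrially encoded genes in the list 9 were higher and 1 lower. All genes annotated on the mitochondrial genome, a larger set, took 7.83 to 9.07% of counts in siRNA controls and 4.66 to 5.49% in CRISPRi controls.

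Part of chromosome 1 stood apart. Among genes with unshared exons and a mean of at least 5 CPM, the 342 that start beyond 150 Mb on chromosome 1 (GRCh38) had a median log2 difference of -0.44, with 77.8% below 0, 60 called higher and 245 called lower. The 445 genes of chromosome 1 up to 150 Mb had a median of 0.05 and the 6756 genes of the other chromosomes also one of 0.05, with 46.1% and 45.4% below 0. Of these 445 and 6756 genes, 190 and 2859 were called higher and 146 and 2320 lower. The boundary was chosen after the values were seen. CDC42BPA, PRRX1 and IFI16 are among the genes named above that start in this stretch. The part of the stretch in their differences was not tested.

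All 10 of the 10-Mb bins beyond 150 Mb that hold at least 10 genes had a median below 0, between -0.78 and -0.16, and 6 of the 10 lay under -0.4. Of the 257 other bins, 1 did so. Genes of chromosome 2 up to 30 Mb had a median of 0.33 (70 genes, 18.6% below 0). The highest median of a single bin lay elsewhere, at 0.55 for 10 genes of chromosome 10 between 130 and 140 Mb. Set against the CRISPRi control means, the medians for the chromosome 1 genes beyond 150 Mb were -0.47 to -0.41 in the 5 siRNA controls. Those for the other genes were 0.03 to 0.06 in the same libraries. The 3 CRISPRi controls, at -0.03 to 0.02 for the chromosome 1 genes, lie near 0 by construction. The boundaries on chromosomes 1 and 2 were chosen on these same libraries, so the values describe the differences and do not test them. DNA copy number was not measured here.

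The FAM167A knockdown libraries of the same experiments, which share no library with the controls, gave medians of -0.83 for chromosome 1 beyond 150 Mb and 0.51 for chromosome 2 up to 30 Mb, siRNA over CRISPRi. Within the siRNA experiment, knockdown and control libraries differed by a median of -0.01 and 0.00 for these regions, and within the CRISPRi experiment by 0.28 and -0.25. The same knockdown libraries had medians of 1.85 for adrenergic factors, -1.02 for mesenchymal factors and -1.59 for YAP and TAZ targets, siRNA over CRISPRi, against 0.51, -0.36 and -1.33 in the controls. For NF-kB mediators the median was -0.39 in knockdown libraries, against 0.54 in controls. Mitochondrially encoded and DNA replication genes had -0.23 and -0.02, against 0.54 and -0.39 in controls. Collagens and catecholamine genes had -1.54 and 1.39, against -0.04 and 0.11. Values with knockdown libraries are differences of mean log2 CPM with 0.5 added, whereas control medians come from the edgeR fit. Here the knockdowns themselves differ between the experiments, so these values stand beside those of the controls as a description.

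**Figure D4:**
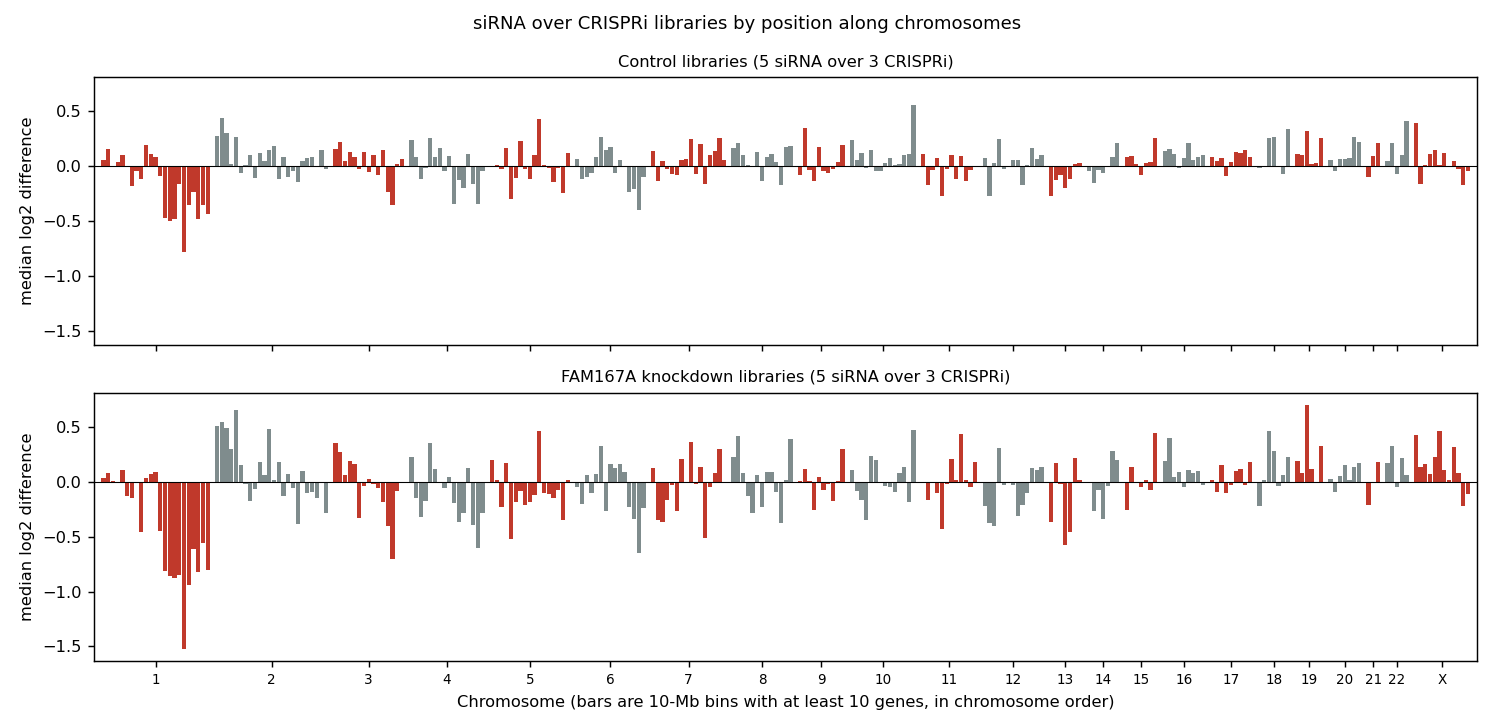
Median log2 difference of siRNA over CRISPRi libraries (y axis) in 10-Mb bins with at least 10 genes, in chromosome order (x axis, chromosomes in alternating colours), for control libraries (top) and FAM167A knockdown libraries (bottom). The 10 bins of chromosome 1 beyond 150 Mb all lie below 0 in the controls, between -0.78 and -0.16.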

How the data were processed

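Per the submitters' processing notes, the authors used STAR 2.6.1d and featureCounts 1.5.1 on GRCh38; neither the strand setting nor the annotation release is stated. The authors deposited raw counts per gene. The siRNA table matched GENCODE 29 for 58735 of 58735 genes. Tables were joined on Ensembl identifier, and libraries were grouped by title. Genes passing filterByExpr (minimum count 10, total 15) were scaled by TMM and tested with edgeR 4.0.16 (robust quasi-likelihood, 5 against 3 libraries), with Benjamini-Hochberg adjustment over 21679 genes. The scripts were tested on simulated data. DESeq2 1.42.0, limma 3.58.1, other scalings and filters, and each library left out in turn were alternatives. Overlap used GENCODE 29 exons and the length trend a lowess fit.

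Members and lists were chosen with earlier results of these data known. The rule for named genes covered FAM167A, FAM167B and the MRCK genes, members of the adrenergic and mesenchymal factor lists, up to 5 called members with the largest change in every other list, the 12 largest rises and falls of protein-coding genes, and genes near absent from one group. The text names a part of these, picked with their values known, and some lists have no member named. Chosen after their values were seen were CHGB, NEFL, TUBB3, FN1, MYH9, NUAK2, COL1A1, COL3A1, EGR1, CXCR4, CDK1, AURKA, MKI67, SCD, EPCAM, TH, PDGFRA, PDGFRB, RGS5, FBLN1, POSTN, FAP, DUSP4, DUSP5 and the comparison by shared exons, length and chromosome. A few members of the lists are not reported by name here.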

Additional observations from a re-analysis of the deposited data

Results flagged for a closer look

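In several results 1 of the 5 siRNA controls lay far from the other 4, judged by its gap to the nearest library as a share of the group's range against Dixon's critical value. Chance alone flags about 1 in 20 groups of 5. Replicate 5 was lowest for NTS at 5.86 CPM (others 7.84 to 8.37), for MET at 87.0 CPM (others 96.1 to 98.1) and for RRM2 at 60.1 CPM (others 63.6 to 64.3), and highest for MKI67 at 539 CPM (others 466 to 474). Replicate 4 was highest for ACTA2 at 20.3 CPM (others 15.7 to 17) and for IFI16 at 52.3 CPM (others 41.1 to 43.7). Replicate 2 was highest for ISL1 at 142.5 CPM (others 130 to 133). Replicate 1 was lowest for MT-ND6 at 743 CPM (others 825 to 832) and for the share of counts in its 10 most abundant genes, at 8.15% (others 8.93 to 9.16%). All of these genes kept their direction and call in the fits that left out 1 library each.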

How the results depend on the processing

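The counts of called genes stayed within 1.5 times of the reported value in 75 of 84 cases. A filter at 1 CPM in 3 libraries kept 15418 genes, with 1952 at least 2-fold higher and 1413 lower in siRNA controls. A fit of protein-coding genes gave 1712 and 1226, and thinning the siRNA libraries to the CRISPRi depth gave 2397 at least 2-fold higher. A fit of the 9690 genes with unshared exons, added after the data were seen, gave 3597 higher and 3443 lower, 1046 and 609 of them at least 2-fold. These 3 filters test fewer genes than the 21679 of the main fit, and the thinned fit also tested fewer, at 16619. The cause of the thinned count was not tested. Leaving out 1 library gave 7314 to 7956 higher and 5967 to 6884 lower genes, 3647 to 3991 and 2031 to 2335 at least 2-fold. With the replicate block the counts were 7954 and 6742, 3865 and 2318 at least 2-fold; the numbers do not pair libraries, since the deviations of same-numbered libraries had correlations of -0.0068 to -0.0023. ZEB2 turned to -0.17 after the length trend was subtracted. CDC42BPB and CXCL8 lost their call in some settings, and PHOX2A, SNAI2 and HAND1 gained one. List medians changed sign in some of 22 settings for Notch genes (12), endothelial markers (10), integrated stress response genes (9), collagens (6), imprinted genes (5), epithelial markers (2) and MHC class I genes (1). Upper-quartile scaling moved the median of all genes to 0.13. With the length trend subtracted, genes with unshared exons had medians of 0.18 (catecholamine), 0.79 (granule), 0.53 (neuronal) and 1.03 (glial). They were -0.50 for mesenchymal effectors, -0.53 for TGF-beta targets, -0.11 for matrix genes, -0.08 for collagens and -0.30 for immediate early genes. The values were 0.75 for NF-kB mediators, -0.89 for mitosis, -0.40 for DNA replication, 0.39 for sterol and 0.28 for hypoxia genes. With 11690515 counts in the shallowest library, levels near 0 in CRISPRi controls are less precise than in siRNA controls.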
